A study of Rattus norvegicus with 12 samples.

Results

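Regulators of G protein signalling (RGS) were examined in the prefrontal cortex (PFC) of rats killed 2 h after the start of acute footshock (FS) stress. The family members were chosen by name, from a list of 10 Rgs genes, and each was read from the array probe set annotated to that gene alone. Of the 10 genes, 9 had such a probe set and were measured (Rgs2, Rgs4, Rgs5, Rgs7, Rgs8, Rgs12, Rgs14, Rgs16 and Rgs17), among 14847 genes tested in all. Rgs10 shared its probe set with Tial1, so it is named only and has no value here. Each of the 9 had 1 probe set, and all 9 passed the filter of a mean log2 value above 4. Rats were adult male Sprague-Dawley animals, 6 per group, with 1 array per rat. The Stress group received inescapable FS for 40 min at 0.8 mA, with 20 min of shock in total. The Control group stayed in the home cage throughout. Each RNA sample came from PFC tissue as a whole, and in such bulk tissue fewer cells of a type and less RNA per cell cannot be told apart.

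RGS proteins switch G protein signals off. A receptor loads the alpha subunit of a heterotrimeric G protein with GTP, and an RGS protein speeds up the hydrolysis of that GTP, so that the signal of dopamine, noradrenaline, serotonin, acetylcholine or glutamate receptors ends sooner. In neurons the transcripts of some RGS genes, Rgs2 and Rgs4 among them, are known to change with neuronal activity and with stress hormones. By sequence, Rgs2, Rgs4, Rgs5, Rgs8 and Rgs16 are small R4 members that consist of little more than the RGS domain. Rgs7 is an R7 member that works as a dimer with the beta subunit Gnb5. Rgs12 and Rgs14 are large R12 members with a GoLoco motif that holds inactive alpha subunits, and Rgs17 is an RZ member that acts on Gi-type alpha subunits.

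In the rat genome 6 of the 9 measured genes lie on chromosome 13. Rgs8 and Rgs16 follow each other there with 0 protein-coding genes between them, and so do Rgs5 and Rgs4. The 250 bases before the annotated start of the 2 members known for activity responses and of Rgs16, the member with the largest difference between groups, are printed from RefSeq (build GRCr8), 5′ to 3′ on the gene's strand. Capitals mark TGACG, the core of the cAMP response element, on either strand. The Rgs2 stretch is chr13:58352667-58352916 (minus strand), the Rgs4 stretch is chr13:84475885-84476134 (minus strand) and the Rgs16 stretch is chr13:68437870-68438119 (plus strand).
Rgs2: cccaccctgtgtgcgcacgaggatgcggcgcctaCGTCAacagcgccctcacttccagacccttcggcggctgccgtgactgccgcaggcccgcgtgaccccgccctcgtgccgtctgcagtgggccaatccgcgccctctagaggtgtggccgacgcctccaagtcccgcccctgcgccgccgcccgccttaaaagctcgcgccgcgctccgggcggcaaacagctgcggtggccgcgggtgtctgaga
Rgs4: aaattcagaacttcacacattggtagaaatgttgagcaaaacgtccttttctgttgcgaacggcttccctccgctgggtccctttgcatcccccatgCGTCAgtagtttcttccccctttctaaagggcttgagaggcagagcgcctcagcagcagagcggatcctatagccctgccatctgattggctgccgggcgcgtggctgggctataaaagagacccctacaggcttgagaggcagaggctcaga
Rgs16: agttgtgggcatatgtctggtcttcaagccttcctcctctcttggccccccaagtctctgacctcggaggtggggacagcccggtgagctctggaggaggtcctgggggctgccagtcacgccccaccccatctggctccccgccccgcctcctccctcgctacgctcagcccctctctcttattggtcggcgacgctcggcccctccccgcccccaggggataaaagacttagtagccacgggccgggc
The match in Rgs2 begins 216 bases before the start and the match in Rgs4 begins 153 bases before it. TGACG on either strand was found in 2 of the 9 member promoters and in 18.2% of all 33469 promoters of the same length. The full element TGACGTCA, which contains TGACG, was found in 0 of the 9 and in 1.59% of all. AGAACA, a site of the glucocorticoid receptor, was found on either strand in 0 of the 9 and in 17.5% of all. A match is a run of letters, and no binding was measured here.

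The arrays were alike in scale, with medians of 5.48 to 5.54 and correlations between arrays of 0.994 to 0.998 across probe sets. The arrays were clustered on probe sets too dim for the test and divided into 2 sets, a number that was set and not found. The labels do not name this split, and how distinct the sets are was not tested. Array set 1 held Control 1 to 4. Array set 2 held Control 5 and 6 and every stressed rat, so values within array set 2 are given beside those over all arrays. Choroid plexus markers (9 of 9 measured, Ttr among them) had a list mean of 2.95 in Control 5 and at most −0.037 elsewhere, and markers of striatal projection neurons (13 of 15 measured) had list means from −0.46 to 0.79. Several lists differed in mean between groups, with 0 genes past the threshold in each and with single rats weighing heavily. Apart from Control 5, choroid plexus list means ran from −0.43 to −0.037 in controls, and they ran from −0.45 to −0.19 in stressed rats. Striatal list means were highest in Control 5 (0.79), Control 4 (0.67) and Stress 4 (0.54), while Control 6 was at −0.42. Striatal (13 of 13), choroid plexus (9 of 9) and blood cell markers (5 of 5) were all lower in mean in stressed rats, and 8 of 8 oligodendrocyte markers were higher. At an unadjusted p under 0.05 there were 2 striatal, 0 choroid plexus, 5 blood cell and 4 of 9 endothelial markers lower, and 2 oligodendrocyte markers higher. The mural and astrocyte lists each had 1 marker lower at that level, and the microglial list had 2 higher and 1 lower. Of all probe sets tested, 2.92% were lower and 3.43% higher at that level. Blood cell list means ran from −0.58 to 0.95 in controls and from −0.86 to 0.075 in stressed rats, and the part of any list in the values of the Rgs genes was not tested beyond the striatal and mural adjustments. List means are means of log2 values centred on each gene's mean over the 12 arrays. The cortical excitatory markers measured (9 of 10, with Slc17a7, Tbr1 and Neurod6) were above the filter.

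The comparison of stressed with control rats asked whether these signal terminators changed 2 h after stress began. None of the 9 genes passed the threshold, an adjusted p of at most 0.05 in limma over all 16085 probe sets tested, which 0.0435% of probe sets passed. At an unadjusted p under 0.05 there was 1 of the 9, Rgs16, against 6.35% of all probe sets (3.43% higher and 2.92% lower in stressed rats). Group ranges overlapped for all 9 genes (0.441% of all probe sets had ranges that did not). The mean was higher in stressed rats for 6 genes and lower for 3, while 53.0% of all probe sets were higher. The median difference over the 9 genes was 0.013 on the log2 scale, against 0.0039 over all probe sets tested. The median size of the difference, without its sign, was 0.019 for the 9 genes and 0.036 for all.

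**Figure D1:**
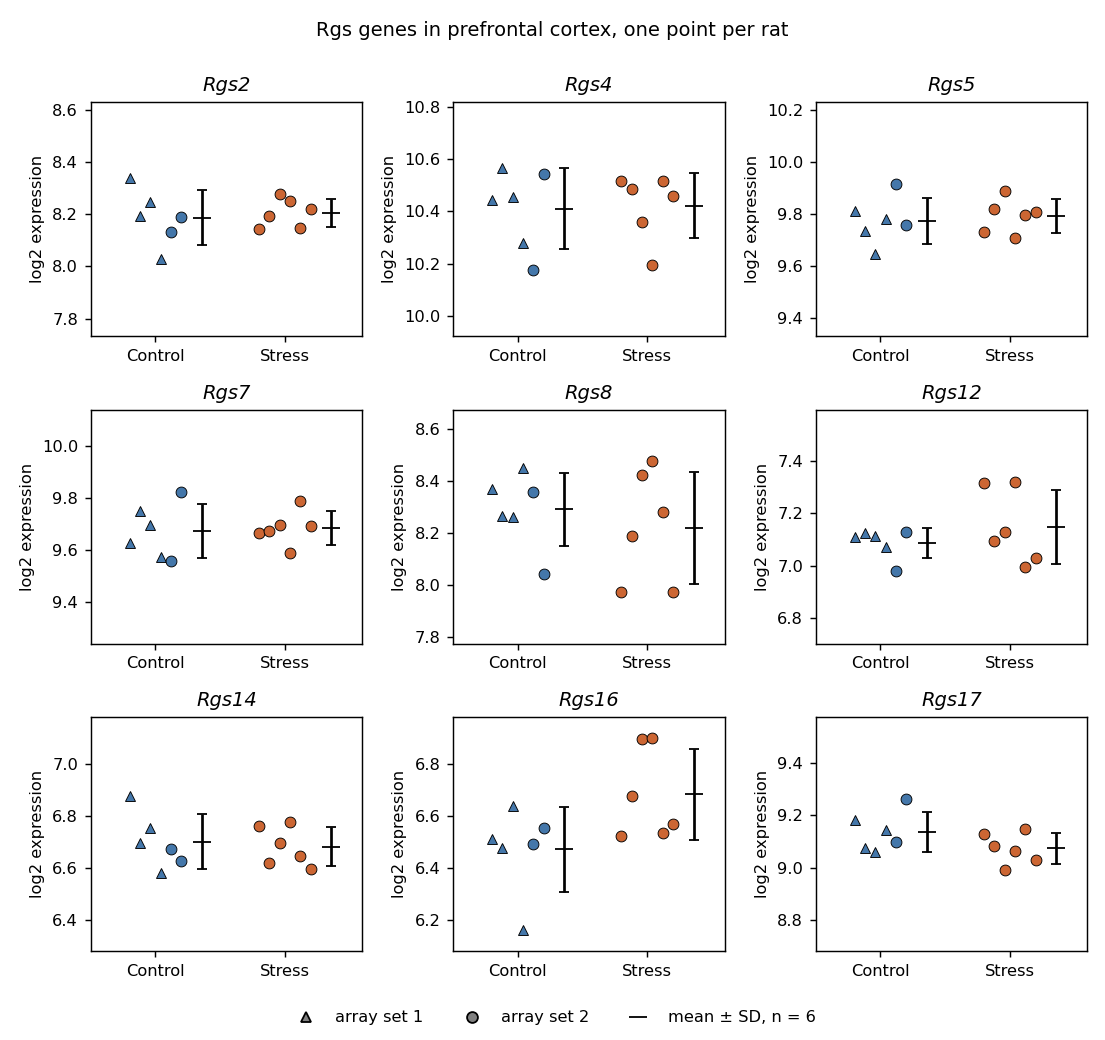
Log2 expression (y axis, the same span of 0.9 in every panel) of the 9 Rgs genes in each Control and Stress rat, with triangles for array set 1, circles for array set 2 and the mean ± SD (n = 6) at the right of each group. The ranges of both groups overlap in every panel, and the gap between means is widest for Rgs16, from 6.47 in controls to 6.68 in stressed rats.

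Rgs16, an R4 member that acts on Gi- and Gq-type alpha subunits, had the largest difference. Control 1 to 6 stood at 6.51, 6.48, 6.64, 6.16, 6.49 and 6.55, and Stress 1 to 6 at 6.52, 6.68, 6.90, 6.90, 6.54 and 6.57. Control 4 was the lowest rat and Stress 3 and Stress 4 were the highest, while the other 9 rats lay within the range of 6.48 to 6.68. Means ± SD were 6.47 ± 0.16 in controls and 6.68 ± 0.17 in stressed rats (n = 6 each), a log2 difference of 0.21 (SE 0.086, 95% interval 0.026 to 0.40, 1.16-fold; limma unadjusted p = 0.0281, adjusted p = 0.738). All 6 stressed rats were above the control mean and 3 were above the highest control. The unadjusted p did not stay under 0.05 without Control 4 (difference 0.15), Stress 3 (0.17) or Stress 4 (0.17), with limma adjusted p-values of 0.843, 0.928 and 0.763. It did not stay there within array set 2 (difference 0.16, limma adjusted p = 0.828) or after adjustment for the striatal marker mean (0.20, limma adjusted p = 0.830) either.

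Rgs4, abundant in cortical neurons and an R4 member that limits Gi- and Gq-coupled receptors, had group means close together. Control 1 to 6 stood at 10.45, 10.57, 10.46, 10.28, 10.17 and 10.54, and Stress 1 to 6 at 10.52, 10.49, 10.36, 10.20, 10.52 and 10.46. Control 4, Control 5 and Stress 4 were the 3 lowest rats, so both groups held low and high values. Means ± SD were 10.41 ± 0.15 and 10.42 ± 0.13, and the difference was 0.011 (SE 0.073, 95% interval −0.15 to 0.17, limma adjusted p = 0.990). As a ratio, the interval ran from 0.904 to 1.12. Within array set 2 the difference was 0.064, and after adjustment for the striatal marker mean it was −0.092 (adjusted p = 0.863).

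Rgs2, which prefers Gq-type alpha subunits, also had close means. Control 1 to 6 stood at 8.34, 8.19, 8.25, 8.03, 8.13 and 8.19, and Stress 1 to 6 at 8.15, 8.19, 8.28, 8.25, 8.15 and 8.22. Both the highest rat (Control 1) and the lowest (Control 4) were controls, and the stressed rats lay between them. Means ± SD were 8.19 ± 0.10 and 8.21 ± 0.054, and the difference was 0.018 (SE 0.048, 95% interval −0.084 to 0.12, limma adjusted p = 0.975). As a ratio, the interval ran from 0.944 to 1.09, and within array set 2 the difference was 0.045.

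The other R4 members were Rgs5, known from pericytes, and Rgs8, known from Purkinje cells and striatum. Rgs5 ran from 9.65 to 9.92 in controls (median 9.77) and from 9.71 to 9.89 in stressed rats (median 9.80), a difference of 0.016 (SE 0.045, adjusted p = 0.976). It was −0.046 within array set 2. Rgs8 ran from 8.04 to 8.45 in controls (median 8.31) and from 7.97 to 8.48 in stressed rats (median 8.23). Its difference was −0.072 (SE 0.093, 95% interval −0.27 to 0.13, adjusted p = 0.943), and it was 0.019 within array set 2. The 3 lowest rats for Rgs8 were Stress 1, Stress 6 and Control 6, at 7.97, 7.97 and 8.04, and the other 9 lay at 8.19 or above.

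Of the remaining members, Rgs7 ran from 9.56 to 9.82 in controls (median 9.66) and from 9.59 to 9.79 in stressed rats (median 9.69), a difference of 0.013 (SE 0.049, adjusted p = 0.982) over all arrays and of −0.0059 within array set 2. Rgs12 ran from 6.98 to 7.13 in controls (median 7.11) and from 6.99 to 7.32 in stressed rats (median 7.11), a difference of 0.060 (SE 0.058, adjusted p = 0.917) over all arrays and of 0.095 within array set 2. It was 0.038 without Control 5, 0.026 without Stress 1, 0.026 without Stress 4 and 0.091 without Stress 5. Stress 1 and Stress 4 were both at 7.32 for Rgs12, and the other 10 rats were at 7.13 or below. Rgs14, known from hippocampal area CA2, ran from 6.58 to 6.88 in controls (median 6.68) and from 6.59 to 6.77 in stressed rats (median 6.67), a difference of −0.019 (SE 0.051, adjusted p = 0.975) over all arrays and of 0.033 within array set 2. Rgs17 ran from 9.06 to 9.26 in controls (median 9.12) and from 8.99 to 9.15 in stressed rats (median 9.07), a difference of −0.063 (SE 0.042, 95% interval −0.15 to 0.026, adjusted p = 0.859) over all arrays and of −0.11 within array set 2. For Rgs17, 5 of 6 stressed rats were below the control mean.

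**Figure D2:**
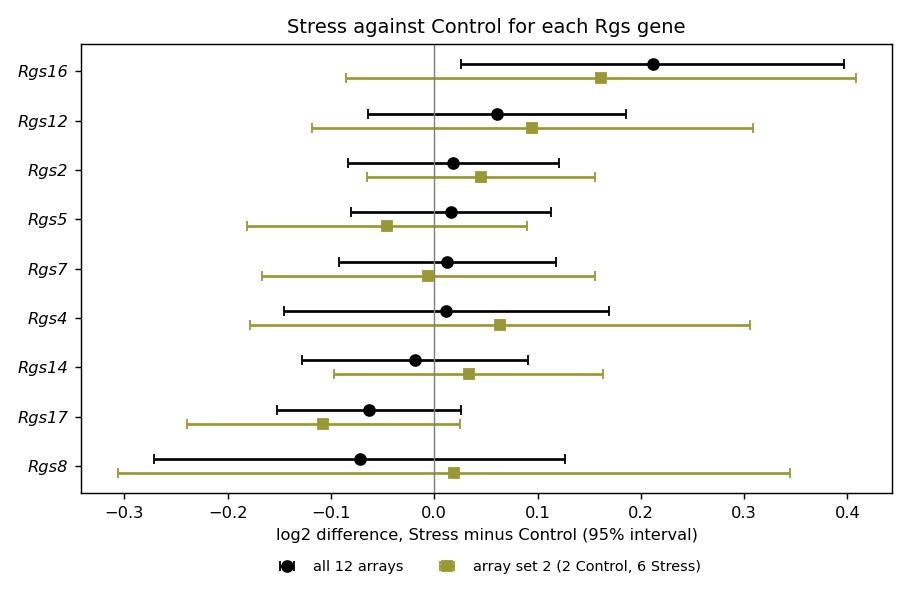
Log2 difference between Stress and Control (x axis, Stress minus Control) for each Rgs gene, with 95% intervals of the limma fit, over all 12 arrays (black circles) and within array set 2 (olive squares). The interval over all arrays excludes 0 for Rgs16 alone (0.026 to 0.40), and within array set 2 no interval does.

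The limma intervals give the precision of each difference in a fit with no term but group. They take no account of array sets or of tissue make-up, so they do not bound every change that remains possible. For 7 of the 9 genes the 95% interval lay inside a 1.2-fold change in either direction, as it did for 90.3% of all probe sets. The exceptions were Rgs16 (1.02 to 1.32 as a ratio) and Rgs8 (0.829 to 1.09). Within array set 2 the interval lay inside that bound for 5 of the 9 genes and for 78.0% of all probe sets, since those of Rgs4 (−0.18 to 0.31 on the log2 scale) and Rgs12 (−0.12 to 0.31) also passed it. The spread between rats of one group was near the usual one. The median residual SD was 0.091 for the 9 genes and 0.085 for all probe sets tested. Rgs8 (0.18), Rgs16 (0.17) and Rgs4 (0.14) had the largest residual SD of the 9, above 94.1%, 92.6% and 87.2% of all probe sets, and Rgs17 (0.069) had the smallest. Over the 12 rats the distance from lowest to highest ran from 0.26 on the log2 scale for Rgs7 to 0.74 for Rgs16.

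The other genes of G protein signalling were read in the same fit. Of 72 genes listed, 66 were tested, and 0 passed the threshold in either direction. At an unadjusted p under 0.05 there were also 0, against 6.35% of all probe sets. Means were higher in stressed rats for 34 and lower for 32, and the median difference was 0.0062. By role, 3 of 8 tested RGS genes outside the list of 10 were higher, as were 4 of 5 partners of R7 proteins, 6 of 13 alpha subunits, 6 of 12 beta and gamma subunits, 3 of 7 GoLoco and RIC8 regulators, 4 of 6 receptor kinases and 8 of 15 effectors. Rgs1, Rgs20, Rgs21, Gng2, Gng4 and Adcy9 were not tested.

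Among RGS genes outside the list, those with the smallest p were Rgs6, an R7 member (difference 0.15, adjusted p = 0.814; 0.041 after adjustment for the striatal marker mean), Rgs9, an R7 member of the striatum (−0.60, SE 0.36, adjusted p = 0.840) and Rgs11 (−0.062, adjusted p = 0.867). Rgs9 stood at 8.26 in Control 4, 8.32 in Control 5 and 8.07 in Stress 4, and from 6.23 to 7.66 in the other 9 rats. After adjustment for the striatal marker mean its difference was 0.019. Gnal, the striatal alpha subunit, was at −0.38 (adjusted p = 0.846; 0.035 after that adjustment), and Gng7, a gamma subunit of striatal neurons, at −0.39 (adjusted p = 0.819; −0.028 after that adjustment). Gnas, the stimulatory alpha subunit, was at −0.51 (adjusted p = 0.819), at −0.78 within array set 2, at −0.13 after that adjustment, at −0.32 without Control 4 and at −0.29 without Control 5. Its probe set was dim, at 5.39 and 5.51 in Control 4 and Control 5 and between 3.80 and 4.26 elsewhere. Gnai3, an inhibitory alpha subunit, was at 0.091 (adjusted p = 0.814; 0.026 within array set 2).

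Of the R7 partners with the smallest p, Rgs9bp, a membrane anchor, was at 0.081 (adjusted p = 0.840; −0.011 within array set 2), and the orphan receptors Gpr179 and Gpr158 were both at 0.048 (adjusted p of 0.873 and 0.931). Gnb5, the obligate partner of Rgs7, was at −0.022 (adjusted p = 0.950). Among other classes Gng12, a gamma subunit, was at 0.076 (adjusted p = 0.819), Gnb2 at −0.053 (adjusted p = 0.861), Rap1gap at −0.14 (adjusted p = 0.811) and the chaperones Ric8b and Ric8a at −0.083 and 0.059 (adjusted p of 0.878 and 0.899). The receptor kinases Grk5, Grk3 and Grk1, which mark active receptors for arrestin, had differences of −0.16, 0.10 and 0.049, with adjusted p-values of 0.793, 0.806 and 0.897, and Grk5 was at −0.32 within array set 2. The effectors Adcy6 and Adcy8, adenylyl cyclases, had differences of 0.072 and 0.065, with adjusted p-values of 0.791 and 0.839, and Kcnj6, a G protein-gated potassium channel, was at 0.12 (adjusted p = 0.839). After adjustment for the striatal mean, Kcnj6 was at 0.037, Rap1gap at −0.032, Ric8b at −0.0053, Ric8a at −0.0029, Grk3 at 0.051 and Gpr158 at 0.018.

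Variation between rats was compared next, to see which members rose and fell together whatever the group. Group means were removed, Pearson r and Spearman rho were computed over the 12 arrays for all 36 pairs of members, and p-values came from two-sided permutation tests adjusted over the 36. By Pearson r 1 pair passed an adjusted p of 0.05 and 5 had an unadjusted p under 0.05, and by Spearman rho 0 passed. Points share arrays, and cell make-up varied between them as described for the marker lists. Within array set 2 the only controls are Control 5 and Control 6, so their deviations from their own mean mirror each other in every relation. An exact p-value here means that all orders were taken. Values less group means are not fully exchangeable, so these p-values are approximate.

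**Figure D3:**
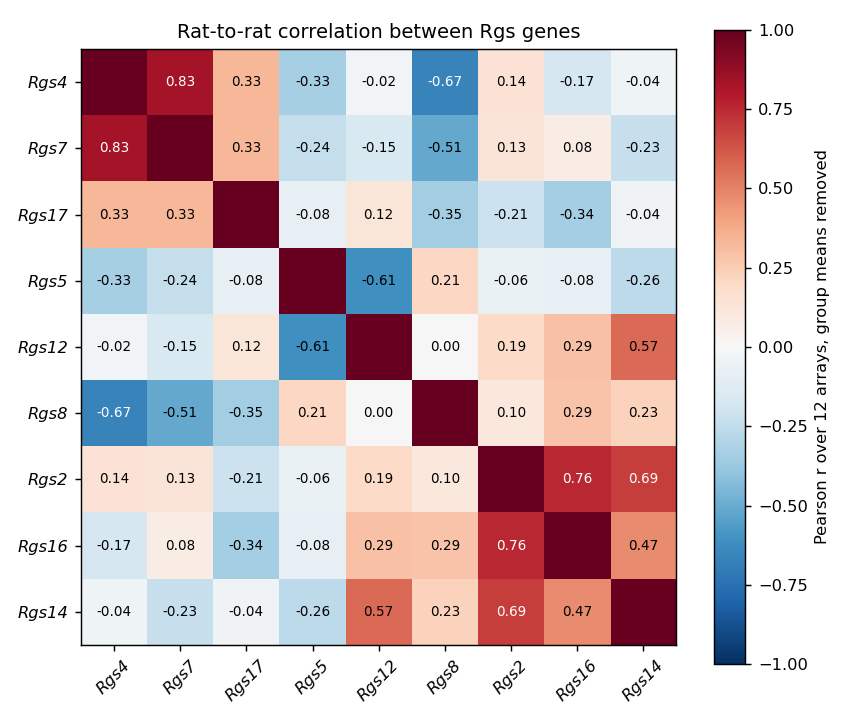
Pearson r between each pair of Rgs genes (rows and columns) over 12 arrays after removal of group means, with red for positive and blue for negative values. The highest value is that of Rgs4 with Rgs7 (0.83), followed by Rgs2 with Rgs16 (0.76), and the lowest is that of Rgs4 with Rgs8 (−0.67).

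The pair past the threshold was Rgs4 with Rgs7 (r = 0.829, permutation p = 0.00097, adjusted p = 0.0349; rho = 0.832, permutation p = 0.00141, adjusted p = 0.0508). Without the 2 arrays farthest from the Rgs4 median, Control 5 and Stress 4, r was 0.733 (permutation p = 0.0156), and within array set 2 it was 0.861 (n = 8, exact permutation p = 0.00962). Adjusted over the 36 pairs, these permutation p-values were 0.281 and 0.173, so the call was lost in both, and 0 pairs passed in either. Leaving out single arrays gave r from 0.779 to 0.872. Control 5, Control 4 and Stress 4 were the 3 lowest rats for both genes. Rgs4 with Rgs8 ran the opposite way (r = −0.671, permutation p = 0.0173, adjusted p = 0.156; rho = −0.699, permutation p = 0.0143, adjusted p = 0.172), with r of −0.637 without the same 2 arrays (permutation p = 0.0459) and −0.774 within array set 2 (n = 8, exact permutation p = 0.0297).

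Rgs2 and Rgs16 rose and fell together in most rats without passing the adjustment (r = 0.758, permutation p = 0.00439, adjusted p = 0.079; rho = 0.790, permutation p = 0.00337, adjusted p = 0.0607). Without Control 1 and Control 4, the arrays farthest from the Rgs2 median, r was 0.837 (permutation p = 0.00287, adjusted p = 0.103), and within array set 2 it was 0.871 (n = 8, exact permutation p = 0.00603, adjusted p = 0.173). Leaving out single arrays gave r from 0.579 to 0.906. Among the 9 arrays without the 3 of highest striatal mean, chosen after the values were seen, r was 0.563 (exact permutation p = 0.108). There rho was 0.400 (exact permutation p = 0.291). Stress 3 and Stress 4 were the highest stressed rats for both genes, and Control 4 was the lowest of all rats for both. Neither pair of genomic neighbours passed the adjustment. Rgs8 with Rgs16 had r = 0.287 (permutation p = 0.364, adjusted p = 0.873; rho = 0.336, permutation p = 0.287), which was 0.709 within array set 2 (n = 8, exact permutation p = 0.0553), and Rgs4 with Rgs5 had r = −0.334 (permutation p = 0.289, adjusted p = 0.813; rho = −0.413, permutation p = 0.186). Rgs2 with Rgs4 had r = 0.143 (permutation p = 0.658; rho = −0.154, permutation p = 0.638). For Rgs2 with Rgs14 r was 0.689 (permutation p = 0.0125, adjusted p = 0.150; rho = 0.538, permutation p = 0.0758). That r was 0.248 without Control 1 and Control 4 and 0.038 within array set 2 (permutation p of 0.480 and 0.926). For Rgs5 with Rgs12 r was −0.610 (permutation p = 0.0343, adjusted p = 0.247), −0.646 without Control 3 and Control 5 and −0.701 within array set 2.

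**Figure D4:**
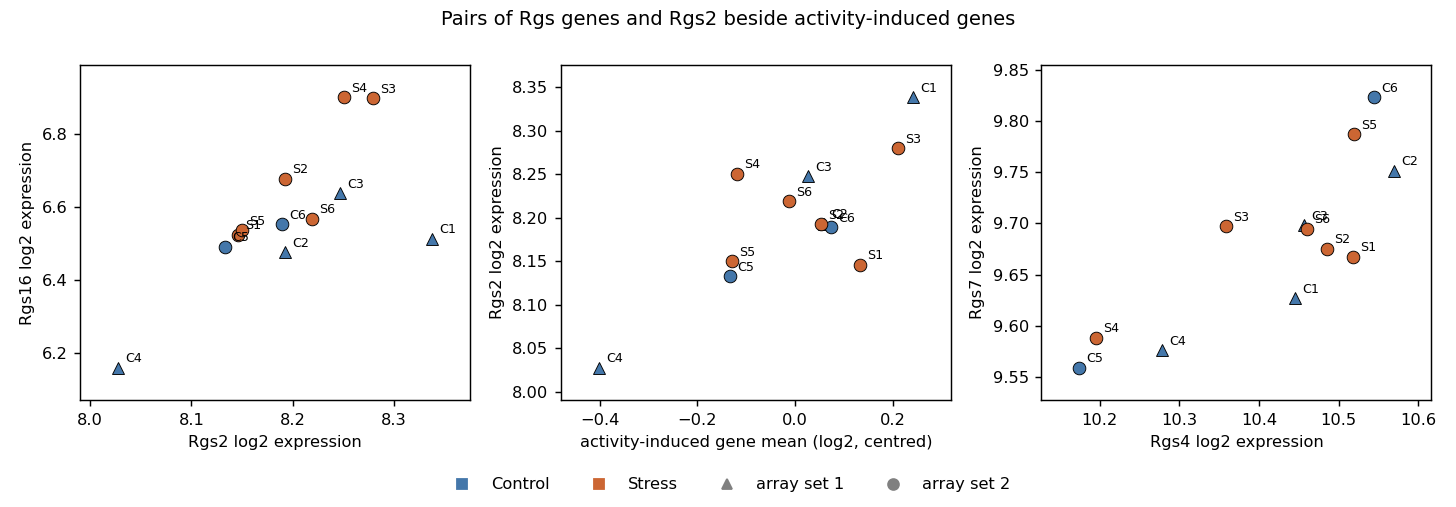
Log2 expression of Rgs16 against Rgs2 (left), of Rgs2 against the mean of activity-induced genes (middle) and of Rgs7 against Rgs4 (right), 1 point per rat (C1 to C6 Control, S1 to S6 Stress; triangles array set 1, circles array set 2). Control 4 is lowest for Rgs2 and Rgs16, and Control 4, Control 5 and Stress 4 are lowest for Rgs4 and Rgs7.

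The members were then set beside the cell type markers, because dissected tissue can hold more or less of a neighbouring region. Of 90 relations (9 genes with 10 marker lists) 4 passed an adjusted p of 0.05 by Pearson r, all of them with Rgs4 or Rgs7, and 0 passed by Spearman rho. By Pearson r 18 of the 90 had an unadjusted permutation p under 0.05. Rgs4 followed the cortical excitatory markers (r = 0.904, permutation p = 0.00012, adjusted p = 0.009; rho = 0.797, permutation p = 0.00289, adjusted p = 0.0867) and ran against the striatal markers (r = −0.863, permutation p = 0.00077, adjusted p = 0.0218; rho = −0.727, permutation p = 0.00996, adjusted p = 0.179). Rgs7 did the same, with r = 0.821 for the excitatory markers (permutation p = 0.00097, adjusted p = 0.0218; rho = 0.664, permutation p = 0.022) and r = −0.875 for the striatal markers (permutation p = 0.0002, adjusted p = 0.009; rho = −0.839, permutation p = 0.00121).

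Without Control 4 and Control 5, the arrays farthest from the median of both lists, r fell in size to 0.794 and −0.732 for Rgs4 and to 0.681 and −0.768 for Rgs7 (excitatory first, striatal second; permutation p of 0.00713, 0.0211, 0.0352 and 0.00893). Within array set 2 the 4 values were 0.874, −0.870, 0.890 and −0.865 (n = 8, exact permutation p of 0.00357, 0.00769, 0.00536 and 0.011). The mirrored controls of that set, Control 5 and Control 6, lay far apart, with excitatory means of −0.24 and 0.10. Adjusted over the 90 relations, the permutation p-values were 0.176 to 0.189 without the 2 arrays and 0.107 to 0.142 within array set 2, so all 4 calls were lost in both. The 3 arrays of highest striatal mean were Control 5 (0.79), Control 4 (0.67) and Stress 4 (0.54), and the other 9 lay between −0.46 and 0.24. Among those 9, a choice made after the values were seen, r of Rgs4 was 0.480 with the excitatory and −0.195 with the striatal markers (exact permutation p = 0.191 and 0.619). For Rgs7 the same values were 0.514 and −0.689 (exact permutation p = 0.158 and 0.0417), and Rgs4 with Rgs7 had r = 0.523 (exact permutation p = 0.149). Leaving out the extremes of a marker list narrows the range over which r is taken, so these values are a description. The part of striatal or other tissue in the differences between rats was not tested.

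Rgs4 and Rgs7 also ran against other lists, without passing the adjustment over the 12 arrays. Rgs4 had r = −0.702 with astrocyte, −0.659 with interneuron and −0.633 with choroid plexus markers (permutation p of 0.0116, 0.0188 and 0.0142, adjusted p = 0.143 each). With oligodendrocyte and blood cell markers it had r = −0.603 and −0.591 (permutation p of 0.0396 and 0.0419, adjusted p = 0.210 each). Rgs7 had r = −0.648 with interneuron markers (permutation p = 0.021, adjusted p = 0.143). With astrocyte markers (7 of 8 measured) Rgs7 had r = −0.738 (permutation p = 0.0066, adjusted p = 0.119) and rho = −0.783 (permutation p = 0.0039). Without Control 2 and Stress 6, the arrays farthest from the astrocyte list median, that r was −0.897 (permutation p = 0.00035, adjusted p = 0.0315), the only one of the 90 past the threshold in that setting. With choroid plexus markers Rgs7 had r = −0.537 (permutation p = 0.0593, adjusted p = 0.267) and rho = −0.622 (permutation p = 0.0356). Within array set 2 that r was −0.840, with the values less group means in exactly opposite rank order (n = 8, exact permutation p = 2.5e-05, the smallest the permutations can give, adjusted p = 0.0022). It was again the only one past the threshold there. Control 5, with its choroid plexus mean of 2.95, is 1 of the 2 controls in that set, whose deviations from their own mean mirror each other.

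**Figure D5:**
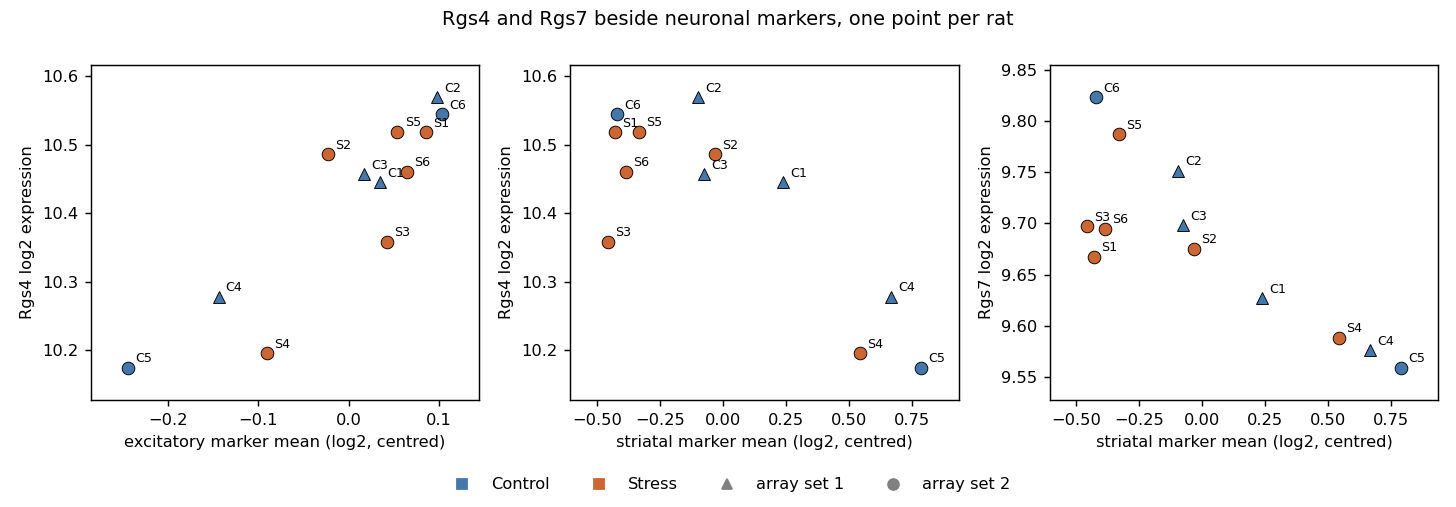
Log2 expression of Rgs4 against the mean of cortical excitatory markers (left) and of striatal markers (middle), and of Rgs7 against the striatal markers (right), 1 point per rat (C Control, S Stress; triangles array set 1, circles array set 2; list means centred on 0). Control 4, Control 5 and Stress 4 combine a striatal mean of 0.54 or more with the lowest Rgs4 and Rgs7.

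Rgs5 was set beside the vascular lists, since it is known from pericytes. It had r = 0.661 with mural cell markers (10 of 12 measured; permutation p = 0.0191, adjusted p = 0.143; rho = 0.706, permutation p = 0.0125), 0.666 with endothelial markers (permutation p = 0.0172, adjusted p = 0.143; rho = 0.601, permutation p = 0.0419) and 0.658 with microglial markers (permutation p = 0.0203, adjusted p = 0.143; rho = 0.811, permutation p = 0.00187). None passed the adjustment. Without the 2 farthest arrays r was 0.658 for the mural, 0.282 for the endothelial and 0.764 for the microglial list (permutation p of 0.0373, 0.428 and 0.0139), and within array set 2 it was 0.564, 0.764 and 0.897 (n = 8, exact permutation p of 0.151, 0.00843 and 0.0035). The mural list mean ran from −0.060 to 0.049 in controls and from −0.052 to 0.098 in stressed rats. With choroid plexus markers Rgs5 had r = 0.601 (permutation p = 0.0418, adjusted p = 0.210; rho = 0.182, permutation p = 0.573), which was −0.370 without Control 4 and Control 5. Rgs8 had r = 0.651 with the striatal markers (permutation p = 0.0222, adjusted p = 0.143; rho = 0.531, permutation p = 0.0794), 0.634 without Control 4 and Control 5 (permutation p = 0.0449) and 0.645 within array set 2 (n = 8, exact permutation p = 0.0905). Rgs2 and Rgs14 ran against the oligodendrocyte markers, with r of −0.687 and −0.604 (permutation p of 0.0133 and 0.0376, adjusted p of 0.143 and 0.210). Within array set 2 these values were 0.134 and 0.090 (n = 8, exact permutation p of 0.744 and 0.825).

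Activity-induced genes such as Fos, Fosb and Arc were compared with the members after their values had been seen. Of 14 tested, 0 passed the threshold, 10 were higher in stressed rats, and their list mean ran from −0.40 to 0.24 in controls and from −0.13 to 0.21 in stressed rats. Of 9 relations with members, 1 passed by Pearson r, that of Rgs2 (r = 0.776, permutation p = 0.00355, adjusted p = 0.032; rho = 0.545, permutation p = 0.07, adjusted p = 0.427). Control 1 was highest and Control 4 lowest for both. Without these 2 rats r was 0.356 (permutation p = 0.306, adjusted p = 0.723). Within array set 2, which holds neither, it was 0.339 (n = 8, exact permutation p = 0.397, adjusted p = 0.872), so the call was lost in both. Leaving out the extremes of the list narrows the range over which r is taken, so these values are a description.

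The genes most like Rgs2 and Rgs4 were looked up among the 14846 genes compared, by Pearson r over the 12 arrays. For Rgs4 they were Cbln2, a secreted cerebellin-family protein (r = 0.958), Mical2, an actin-oxidising enzyme (0.950), and Fam81a (0.931). For Rgs2 they were Or2r3b, an olfactory receptor (0.922), Phf13, a PHD finger protein (0.887), and Zfp704, a zinc finger protein (0.861). These values are the highest of many and carry no test.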

How the data were processed

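Affymetrix Rat Gene 1.0 ST arrays measured 250 ng of total RNA from each rat, amplified with random primers. The authors deposited log2 values, 1 per probe set and array, made with the rma function of oligo (version 1.58.0), which does background correction, quantile normalization across arrays and probe summary. A change shared by most genes is removed by that step, and changes of dim probe sets are understated. Arrays carry no read depth, and their number (12) limits the precision. For the array annotation, the sources used here name no genome build.

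Of 29214 probe sets, 18644 had exactly 1 gene symbol in the platform annotation, 962 had several and 9608 were not listed. Symbols were updated through gene identifiers in a RefSeq table (GRCr8) for 99.0% of the first. Differences (Stress minus Control) came from limma 3.58.1 (lmFit and eBayes, two-sided, R 4.3.3) with no term but group, on probe sets with 1 symbol and a mean above 4, with Benjamini-Hochberg adjustment over all 16085. Test, filter level, adjustment method and threshold (0.05) are those of the study's methods. The study does not state that the level applies to the mean over arrays, or that a probe set needs exactly 1 symbol. Named or not, 23532 probe sets had a mean above 4. The fit was also run on simulated data with independent noise for each probe set. Those data held no array sets or shared tissue differences, so they do not bear on the effect of either. A gene with several probe sets was read from the one with the highest mean. Array sets came from average-linkage clustering of the arrays on 5682 probe sets with a mean of at most 4. The tree was cut into 2 sets whatever the data. Permutation tests used 100000 resamples, or all orders where n was under 10. Named pathway genes were the 3 of smallest p in each list. Members, lists and tests were chosen with earlier results of these data known. Alternatives changed the filter, the probe sets, the variance model, the scaling, the array set, covariates, the replicate block and single arrays. Samples were grouped by their labels.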

Additional observations from a re-analysis of the deposited data

Results flagged for a closer look

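Within groups of 6 rats, 2 values stood far from the others of their group, by the gap to the nearest rat as a share of the group's range (above 0.625), among 18 groups examined. Chance alone flags about 1 group in 20. Rgs16 was at 6.16 in Control 4, where the other controls lay between 6.48 and 6.64 (gap 0.664 of the range). Rgs12 was at 6.98 in Control 5, where the other controls lay between 7.07 and 7.13 (gap 0.633 of the range). Control 5 is also the array with the high choroid plexus mean, and the part of this in the Rgs12 value was not tested.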

How the results depend on the processing

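Under all 24 alternatives 0 of the 9 members and 0 of the pathway genes passed the threshold, and the smallest adjusted p of a member was 0.488 (Rgs16 without Control 6, limma). Changes of the filter, the variance model, the probe sets or the replicate block cannot move a member's difference, which stayed at 0.21 for Rgs16. The array set as a block and array set 2 alone give the same difference, since array set 1 holds only controls. The median difference of the members ran from 0.00062 to 0.033 over the settings that kept all or a fixed set of arrays, and from −0.014 to 0.026 when single arrays were left out. Some directions changed, those of Rgs9 (−0.60 over all arrays) and Gnal (−0.38) among them. After adjustment for the striatal marker mean, Rgs4 was at −0.092, Rgs7 at −0.051, Rgs8 at 0.028, Gnal at 0.035, Rgs9 at 0.019 and Ric8a at −0.0029. Within array set 2, and with the array set as a block, Rgs5 was at −0.046, Rgs7 at −0.0059, Rgs8 at 0.019, Rgs14 at 0.033, Gng12 at −0.0086 and Rgs9bp at −0.011. Leaving out single arrays gave −0.014 to 0.048 for Rgs2, −0.036 to 0.057 for Rgs4, −0.0093 to 0.044 for Rgs5, −0.010 to 0.043 for Rgs7 and −0.043 to 0.016 for Rgs14. The cause was not tested. The labels do not say whether replicate numbers pair the rats. Same-numbered arrays deviated together with correlations from −0.14 to 0.42. For Control 1, Control 4 and Control 6 the stressed array that deviated most alike had the same number, and for the other controls it did not. These correlations cannot settle a pairing, since arrays can also deviate together through shared tissue make-up. The replicate block left 0 members past the threshold, with a median difference of 0.013 that a balanced block cannot change, and moved the count over all probe sets from 7 to 6. It was 11 after adjustment for the striatal mean, 4 to 8 when single arrays were left out, and 1 with the array set as a block and within array set 2, where 2 controls face 6 stressed rats.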

Other observations

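Among the 9 arrays without the 3 of highest striatal mean, Rgs2 and Rgs4 had r = −0.917 (exact permutation p = 0.000744; rho = −0.817, exact permutation p = 0.0108), whereas over all 12 arrays r was 0.143. This value was singled out after all 36 pairs had been seen in those 9 arrays, and its p is not adjusted for that choice.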
